A study of Mus musculus with 14 samples.

Results

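Cathepsins and the related protease legumain are the main protein-degrading enzymes of the lysosome, and 8 of their genes were followed here in the thymus of estradiol- and genistein-treated mice: Ctss, Ctsl, Ctsb, Ctsd, Ctsh, Ctsc, Ctsz and Lgmn. The members were all probe sets annotated to one of these genes alone, by current symbol or alias. This gave 13 probe sets, of which Ctsb had 4, Ctsz had 3 and the other genes 1 each. All 13 passed the filter on dim probe sets and were among the 13575 tested, which stand for 8214 genes. For a gene with several, the brightest by mean log2 value stands for the gene, and the others are given with their own values.

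RNA from whole thymus was measured on 14 Affymetrix arrays, in 7 groups of 2 arrays. All mice were female C57BL/6, were ovariectomised at 26 days of age and were then kept on a diet free of phytoestrogens. The control group was taken without any treatment on day 0, at 30 days of age. Estradiol groups received 125 ng of estradiol in 0.02 ml of corn oil under the skin each day and were taken at day 2, 3 or 6. Genistein, an isoflavone of soybeans and a weak ligand of the estrogen receptors, was mixed into the diet at 1500 ppm, and its groups were taken at the same days. Each group had 6 mice, and each array held pooled RNA of 3 of them. The controls were neither injected nor taken at later days, so that treatment, vehicle and time since day 0 cannot be told apart in comparisons with control. Estradiol and genistein also differ in route, injection against diet.

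Lysosomal proteases are made as inactive precursors, sorted to acidic compartments and activated there by cleavage. They break down proteins taken up from outside or delivered by autophagy, and some of them have a narrow task in antigen presentation: they cut the invariant chain away from MHC class II molecules and shape the peptides that these display. In the thymus, cathepsin L serves that step in cortical epithelial cells and cathepsin S in dendritic cells, macrophages and B cells, and macrophages that clear dying thymocytes are rich in the whole family.

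The RefSeq promoter table (build GRCm38.p6) matched 6 of the 8 member genes, with 7 entries. Below are the 250 bases before the annotated start of 3 members, Ctsz, Ctss and Ctsd. Ctsz was the only member gene with an adjusted p under 0.05 between the treatments over the mean of days. The differences of Ctss from control ran against those of the other members at the later days of estradiol. Ctsd is printed for the palindrome described below. The sequences are read 5′ to 3′ on the strand of the gene, at chr2:174439040-174439289 (minus strand), chr3:95526536-95526785 (plus strand) and chr7:142387828-142388077 (minus strand). Capitals mark matches, on either strand, to any of 6 short motifs that were searched.
Ctsz: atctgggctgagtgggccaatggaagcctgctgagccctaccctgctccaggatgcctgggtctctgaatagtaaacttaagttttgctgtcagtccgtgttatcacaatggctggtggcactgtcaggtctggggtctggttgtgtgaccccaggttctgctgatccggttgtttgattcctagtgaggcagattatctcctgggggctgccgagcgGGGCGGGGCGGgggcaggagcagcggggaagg
Ctss: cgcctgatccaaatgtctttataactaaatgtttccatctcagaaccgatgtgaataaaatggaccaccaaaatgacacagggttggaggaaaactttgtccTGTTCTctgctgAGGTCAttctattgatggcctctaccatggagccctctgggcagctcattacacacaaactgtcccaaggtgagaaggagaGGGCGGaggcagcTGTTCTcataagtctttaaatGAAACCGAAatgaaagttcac
Ctsd: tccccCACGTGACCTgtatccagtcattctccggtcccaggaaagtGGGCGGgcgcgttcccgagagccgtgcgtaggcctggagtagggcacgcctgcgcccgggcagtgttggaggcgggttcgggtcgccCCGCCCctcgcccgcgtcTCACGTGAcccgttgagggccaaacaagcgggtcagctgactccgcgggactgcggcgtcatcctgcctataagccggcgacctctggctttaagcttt

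The palindrome TCACGTGA, the core of the CLEAR element through which TFEB and TFE3 drive lysosomal genes, lay 99 bases before the start of Ctsd and in no other of the 7 member entries. It is present in 0.785% of all 32851 promoter windows of this length. Its inner 6 letters, the E-box CACGTG, also matched in the second entry of Lgmn and at a further position in Ctsd, against 6.02% of all windows. It matched in the window of Ctsl too, but the annotated start there may be that of a later exon. GGGCGG, the GC box bound by Sp factors, occurred in Ctsz, Ctss, Ctsd, Ctsc and the first entry of Lgmn (32.7% of all windows). In Ctsz its matches overlap by a base. These windows held 58.8% G and C for Ctsz, 44.8% for Ctss, 67.2% for Ctsd and 60.4% for both Ctsc and the first entry of Lgmn. The second entry of Lgmn held 48.0%. The median of all windows was 52.4%, so that 32.7% is not a share for windows of like content. AGGTCA, the half-site of the estrogen receptors, was found in Ctss and Ctsd (14.0%), and in Ctsd it overlaps an E-box. AGAACA, the half-site of the glucocorticoid receptor, was found in Ctss and Ctsc (16.1%). GAAANNGAA, a site of the interferon regulatory factors, was found 21 bases before the start of Ctss and in no other member entry (7.13%). Such matches describe letters in a window and do not show binding.

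A property of 3 arrays touches every value below. The deposited values of 11 arrays shared a trimmed mean of 150.04, whereas replicate 2 of estradiol day 2 stood at 1.49 times that level and both arrays of estradiol day 3 at 2 and 2.23 times. All arrays were therefore rescaled to the common mean, and signals below are rescaled intensities. Gapdh signals from its 3′ and 5′ ends, whose ratio is a sign of RNA integrity, had a ratio of 1.27 on replicate 1 of estradiol day 2, of 1.5 on replicate 1 of genistein day 6, and of 0.867 to 1.1 on the other arrays. Between the arrays of a group the members had a median SD of 0.0538 to 0.113 (log2) over the 7 groups, against 0.0842 to 0.162 for all probe sets. Control replicate 2 had the lowest mean correlation with the other arrays, 0.942 against 0.952 to 0.969. Only 2 arrays per group limit the precision of every value, and p-values speak of pools of mice treated in 1 study. In RNA from whole tissue, more cells of a type and more RNA per cell cannot be told apart.

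Under estradiol, 7 of the 8 genes had a mean above control and Ctss had a mean below it. Over the mean of days 2, 3 and 6, the log2 difference from control was 0.70 ± 0.196 (SE) for Lgmn, 0.45 ± 0.102 for Ctsb, 0.36 ± 0.102 for Ctsz, 0.35 ± 0.0812 for Ctsl, 0.34 ± 0.112 for Ctsc, 0.29 ± 0.138 for Ctsh and 0.26 ± 0.106 for Ctsd. For Ctss it was -0.28 ± 0.108. The median of the 8 genes was 0.343, while the median of all tested probe sets was 0.00485. None of these 8 differences passed at an adjusted p under 0.05, Ctsb (adjusted p = 0.0646) and Ctsl (adjusted p = 0.0682) being nearest. Of the 13 member probe sets 1 passed, the second probe set of Ctsb, while 0.604% of all tested probe sets passed. That background of 82 calls rests on single arrays: it was 569 without control replicate 1, 4 without control replicate 2, and 25 to 35 without any 1 of the day 3 and day 6 estradiol arrays. At an unadjusted p under 0.05 in limma stood 10 of the 13, among them Ctss, which was below control, against 14.8% of all probe sets.

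**Figure D1:**
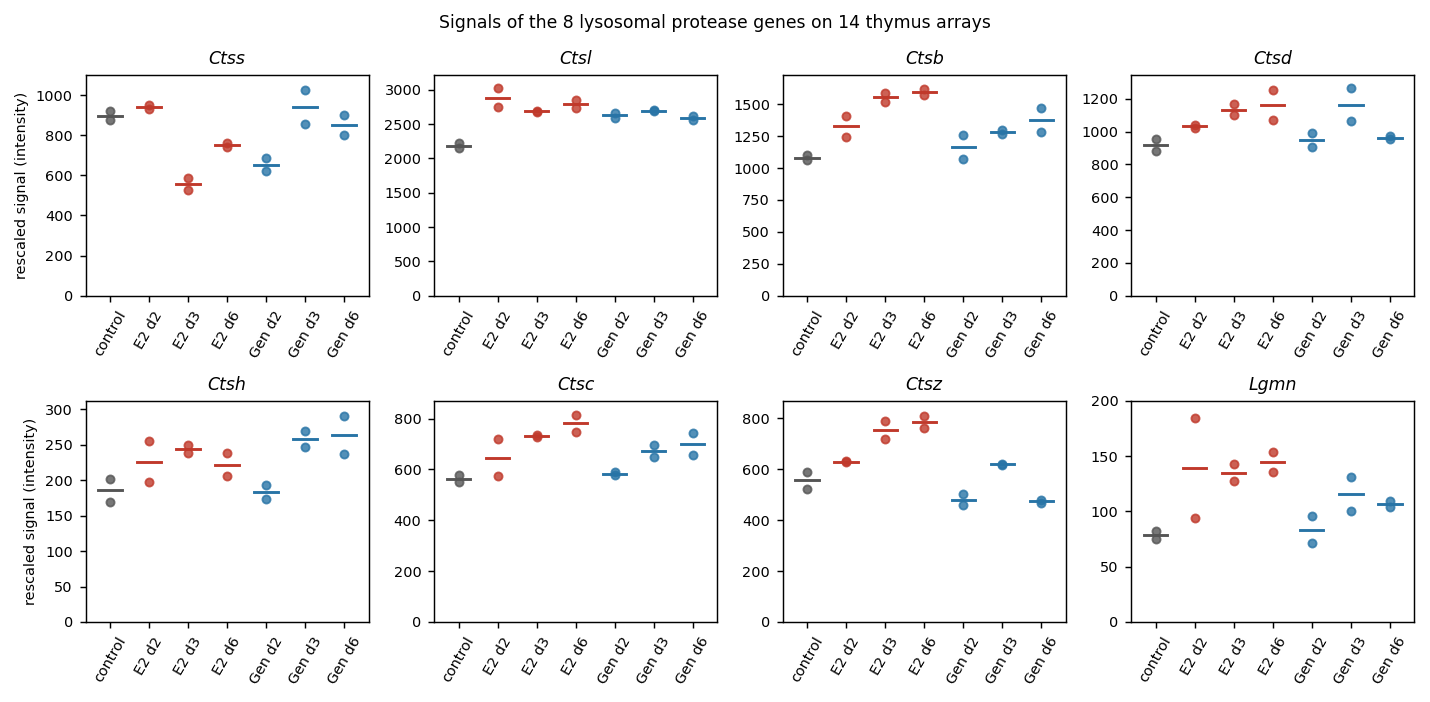
Rescaled signal (vertical axis, intensity from 0, a scale of its own for each gene) of the 8 member genes on 14 arrays; points are arrays, bars are means of 2 arrays, and E2 and Gen stand for estradiol and genistein at day 2, 3 or 6. All 6 estradiol arrays lie above both control arrays for Ctsl, Ctsb, Ctsd, Ctsz and Lgmn, and Ctss is lowest at estradiol day 3.

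For 6 of the 13 member probe sets all 6 estradiol arrays lay above both control arrays, as they did for 8.04% of all probe sets. These were the main probe sets of Ctsl, Ctsb, Ctsd, Ctsz and Lgmn and the second of Ctsb.

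Cathepsin B, a cysteine protease that acts as an endopeptidase and as a carboxydipeptidase, had signals of 1100.3 and 1062 on the control arrays. Under estradiol its day 2 arrays read 1411 and 1242, its day 3 arrays 1517 and 1592, and its day 6 arrays 1573 and 1623. Every estradiol array was above both controls, and the day 3 and day 6 arrays were also above all genistein arrays. Against control the log2 difference was 0.29 ± 0.124 at day 2, 0.52 ± 0.124 at day 3 (adjusted p = 0.212) and 0.56 ± 0.124 at day 6 (adjusted p = 0.0684), and it passed at none of these days. In the order of group means, estradiol day 6 and day 3 came first, with overlapping arrays, and stood clear of genistein day 6, which was next. Control was last and overlapped genistein day 2.

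The second probe set of Ctsb, 1448732_at, had signals of 754 and 605 on the controls, 773 and 1037 at estradiol day 2, 1207 and 1391 at day 3, then 1145 and 1225 at day 6. It rose under estradiol by 0.71 ± 0.145 over the mean of days (adjusted p = 0.046). This call was lost under 14 of 26 alternatives, among them the fit without control replicate 2 (0.55, adjusted p = 0.629) and the fit without the 3 arrays at another scale (0.49, adjusted p = 0.274), and its direction was upward in all 26. The 2 dim probe sets of Ctsb, with means of 72.4 and 69.7, had log2 differences of 0.29 ± 0.184 and 0.17 ± 0.134.

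Cathepsin L, the endopeptidase of cortical epithelial antigen processing, stood above control in every treated group. The control arrays read 2144 and 2227, and the 12 treated arrays lay between 2566 and 3024. Estradiol arrays read 3024 and 2748 at day 2, 2694 and 2676 at day 3, then 2858 and 2738 at day 6. The day 2 difference from control was 0.40 ± 0.0994 (adjusted p = 0.184), the day 3 difference 0.29 ± 0.0994 and the day 6 difference 0.35 ± 0.0994 (adjusted p = 0.127). No treated group overlapped control. Among the treated groups the highest group mean, at estradiol day 2, was 2886 ± 195.6 (SD, n = 2) and the lowest, at genistein day 6, was 2589 ± 32.5 (SD, n = 2).

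Cathepsin D, the main aspartic protease of the lysosome, read 956 and 882 in the controls and 1024 to 1251, with a median of 1085, over the 6 estradiol arrays. All 6 were above both controls. Its mean at estradiol day 6, 1160 ± 127 (SD, n = 2), was close to that at genistein day 3, 1163 ± 143 (SD, n = 2), and the arrays of these groups overlapped.

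Legumain, which cuts after asparagine and matures other cathepsins, had control arrays of 81.9 and 75.3, and estradiol arrays of 94.3 and 185 at day 2, 127 and 142 at day 3, then 136 and 154 at day 6. All 6 were above both controls, and the day 2 pair was the widest apart. At 1.78, 1.72 and 1.84 times control at days 2, 3 and 6 its ratios of mean signals were the highest among the main probe sets of the 8 genes, while the second probe set of Ctsb reached 1.91 at day 3. The day 2 value rests on replicate 2: the log2 difference from control there was 0.65, but 0.22 without it and 1.09 without replicate 1. With an SE of 0.196 for the mean of days the adjusted p was 0.122. The difference over the mean of days was 0.84 without replicate 1 of estradiol day 2. That array had the Gapdh ratio of 1.27 and the lower Lgmn signal of its pair. Over the mean of days Lgmn passed under 3 of 27 alternatives.

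Cathepsins C and H are exopeptidases that trim amino acids from the amino-terminal end. Cathepsin C, which also activates the serine proteases of neutrophil and lymphocyte granules, read 549 and 579 in the controls, 720 and 573 at estradiol day 2, 729 and 734 at day 3, then 747 and 815 at day 6. The day 3 and day 6 arrays were above both controls, and 1 of the day 2 arrays was not. Cathepsin H read 170 and 202 in the controls and 197 to 256 over the estradiol arrays, of which 5 of 6 were above both controls. Its genistein arrays at day 3 and day 6, at 270, 247, 291 and 237, overlapped this range.

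**Figure D2:**
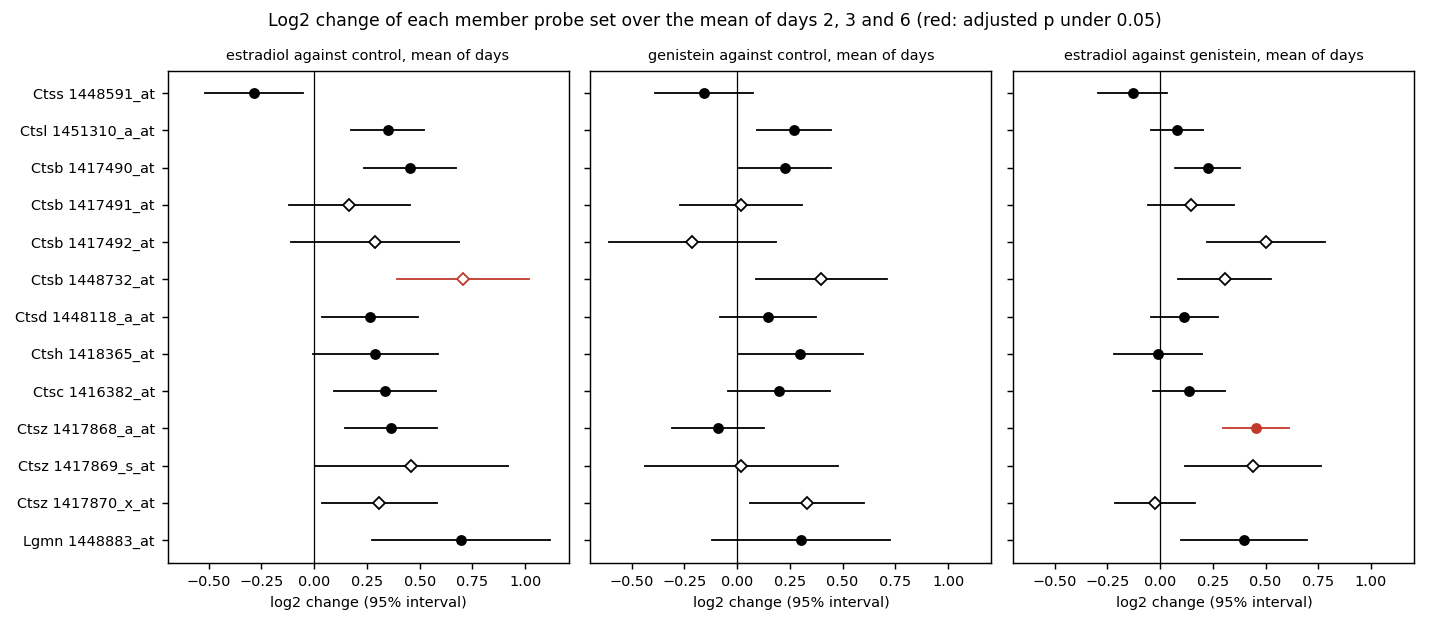
Log2 change (horizontal axis) with its 95% interval for the 13 member probe sets, over the mean of days 2, 3 and 6, in 3 panels, for each treatment against control and for estradiol against genistein; filled circles are the probe set that represents a gene, open diamonds its others, and red marks an adjusted p under 0.05. The 2 red points are Ctsb 1448732_at in the left panel (0.71) and Ctsz 1417868_a_at in the right one (0.46).

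Ctsz, encoding a carboxypeptidase of monocytes, macrophages and dendritic cells, was the only member gene that passed between the treatments. Its controls read 522 and 591. Under estradiol it read 631 and 628 at day 2, 790 and 719 at day 3, then 809.8 and 763 at day 6. Its genistein arrays read 501 and 460 at day 2, 619.8 and 618 at day 3, then 480 and 469 at day 6. Every estradiol array was above every genistein array and above both controls, and the day 2 and day 6 genistein arrays were below both controls.

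Over the mean of days Ctsz was higher under estradiol than under genistein by 0.46 ± 0.0722 (log2, adjusted p = 0.00707). It was the 1 of 13 member probe sets that passed in this comparison, in which 1.41% of all probe sets passed, or 191, a count that ranged from 61 to 320 when each array was left out in turn. At an unadjusted p under 0.05 in limma stood 6 of the 13, against 17.1% of all probe sets. Besides Ctsz these were Lgmn (0.40) and, of Ctsb, the main probe set (0.23), 1448732_at (0.31) and the dim 1417492_at (0.50). All were higher under estradiol, as was 1417869_s_at of Ctsz. Ctsz was also the 1 of 13 for which all 6 estradiol arrays lay above all 6 genistein arrays, as 0.965% of all probe sets did. The call held without each of the 14 arrays in turn, with adjusted p between 0.00849 and 0.0443. It was lost without the 3 arrays at another scale (0.55, adjusted p = 0.0646) and with the probe sets of the gene averaged (0.29, adjusted p = 0.0693).

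By day the Ctsz difference between treatments was 0.38 ± 0.125 at day 2 (adjusted p = 0.497), 0.28 ± 0.125 at day 3 (adjusted p = 0.734) and 0.71 ± 0.125 at day 6 (adjusted p = 0.0436). Day 6 was the single day with a member call, 1 of 13 against 0.265% of all probe sets, and this call was lost under 20 of 27 alternatives, among them the fits without each of 12 of the 14 arrays, at differences of 0.46 to 0.75 over all of them. At day 2 and day 3 no member passed, where 0.081% and 0.0147% of all probe sets did. At an unadjusted p under 0.05 in limma stood 5 of the 13 at day 2, against 6.72% of all probe sets, and 4 at day 3, against 6.7%. The 4 at day 3 included Ctss, which was lower under estradiol (-0.73).

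The probe sets of Ctsz did not show 1 pattern. The probe set 1417869_s_at, with a mean signal of 128, differed between treatments by 0.44 ± 0.15 (adjusted p = 0.153). The probe set 1417870_x_at, with a mean of 345, differed by -0.02 ± 0.0891, with a 95% interval from -0.21 to 0.17 that does not reach the value of the main probe set. It read 300.3 and 261 in the controls and 307 to 418 on the 6 genistein arrays, all above both controls. Both endings carry a limit, since _s_at marks probes shared among several transcripts and _x_at a probe set some of whose probes can match other transcripts.

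Cathepsin S, the protease that completes the removal of the invariant chain in dendritic cells and macrophages, followed another course. Its controls read 875 and 918. Under estradiol its signal was 951 and 931 at day 2, 587 and 528 at day 3, then 740.3 and 762 at day 6. The day 2 arrays were above both controls, and the 4 later arrays were below both. Under genistein it read 619 and 685 at day 2, 1025 and 854 at day 3, then 803 and 903 at day 6. Both day 2 arrays were below the controls, and the later ones spread on both sides of them.

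**Figure D3:**
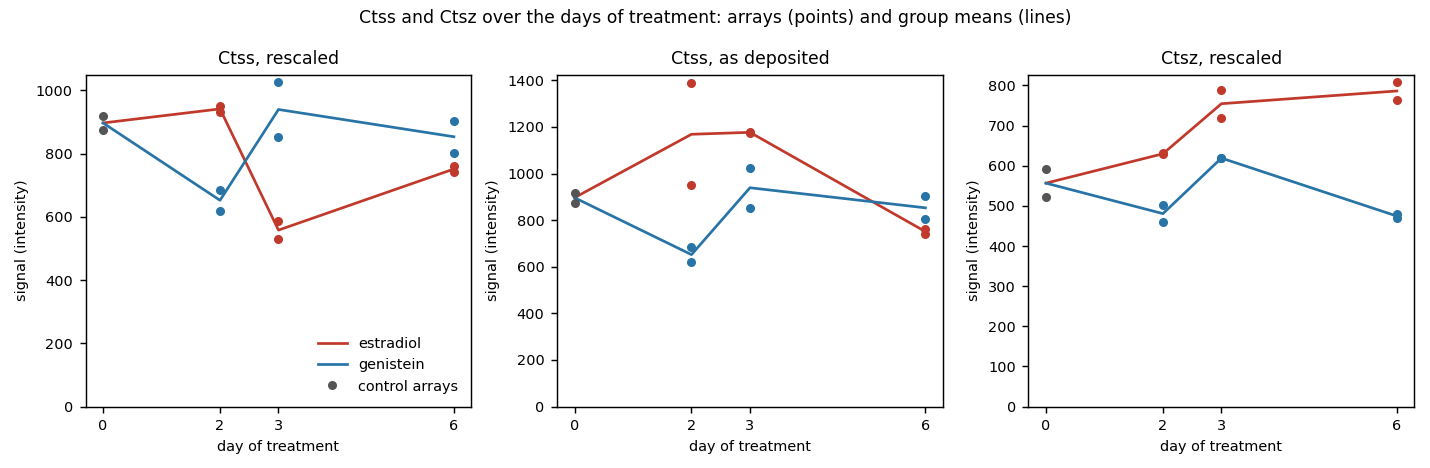
Signal (vertical axis, intensity from 0) of Ctss after rescaling, of Ctss as deposited and of Ctsz after rescaling, against day of treatment, with points for arrays and lines through group means, in red for estradiol and blue for genistein, both starting from the control mean. After rescaling Ctss is lowest at estradiol day 3 (587 and 528), but as deposited these arrays read 1176 and 1179, above both controls. The deposited trimmed means of these arrays were 2 and 2.23 times the common level.

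Against control, Ctss differed by 0.07 ± 0.132 at estradiol day 2, by -0.67 ± 0.132 at day 3 (adjusted p = 0.0983) and by -0.25 ± 0.132 at day 6. Against genistein it differed by 0.52 ± 0.132 at day 2 (adjusted p = 0.267), by -0.73 ± 0.132 at day 3 (adjusted p = 0.184) and by -0.18 ± 0.132 at day 6. None of these passed. In the test of whether the difference between treatments varied with day, Ctss ranked 2 of 13575 probe sets by p, with an adjusted p of 0.317 in limma, and no probe set passed. The day 3 values rest on the rescaling, since both estradiol day 3 arrays are among those at another scale. As deposited the difference from control there was 0.39 (adjusted p = 0.0681 in limma), while all probe sets had a median difference of 1.01. In the 25 other alternatives, all with rescaled arrays, it was -0.745 to -0.597.

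The order of the Ctss group means had 4 groups at the top whose neighbours overlapped: estradiol day 2 at 941 ± 13.7 (SD, n = 2), genistein day 3 at 939 ± 121, control at 897 ± 30.5 and genistein day 6 at 853 ± 70.6. Below them, without overlap between neighbours, came estradiol day 6 at 751 ± 15.1, genistein day 2 at 652 ± 46.7 and estradiol day 3 at 558 ± 41.6.

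Under genistein, over the mean of days, 6 of the 8 genes had a mean above control, with a median log2 difference of 0.214, against 0.0109 over all probe sets. The log2 differences were 0.30 ± 0.196 for Lgmn, 0.30 ± 0.138 for Ctsh, 0.27 ± 0.0812 for Ctsl (adjusted p = 0.333), 0.23 ± 0.102 for Ctsb, 0.20 ± 0.112 for Ctsc and 0.15 ± 0.106 for Ctsd. For Ctsz and Ctss they were -0.09 ± 0.102 and -0.15 ± 0.108. No member passed, and 0.0368% of all probe sets did. At an unadjusted p under 0.05 in limma stood 5 of the 13, against 11.1% of all probe sets.

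For 3 of the 13 probe sets all 6 genistein arrays were above both controls, as for 4.49% of all probe sets: those of Ctsl, the second of Ctsb and 1417870_x_at of Ctsz. The median of the 8 genes under genistein was 0.0471 at day 2 but 0.274 at day 3 and 0.273 at day 6. No member passed at day 2, day 3 or day 6, where 0.0147%, 0.00737% and 0.00737% of all probe sets passed. Counted in either direction, 3, 4 and 5 of the 13 had an unadjusted p under 0.05 in limma at these days. Those at day 2 included Ctss (-0.45) and 1417492_at of Ctsb (-0.80), both below control. The shares of all probe sets at days 2, 3 and 6 were 11.8%, 5.73% and 10.4%. Without control replicate 1 the calls at these days numbered 292, 101 and 154 over all probe sets, with 1, 0 and 0 among the members, and without control replicate 2 they numbered 0, 0 and 1, with none among the members. The comparisons of both treatments with control share the 2 control arrays, so that their values for the members are not independent.

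At single days of estradiol the median of the 8 genes was 0.221 at day 2, 0.37 at day 3 and 0.406 at day 6. No member passed at these days, where 0.0884%, 0.0663% and 0.656% of all probe sets passed. Counted in either direction, 5, 10 and 9 of the 13 had an unadjusted p under 0.05 in limma at these days. Those at day 3 included Ctss, which was below control (-0.67). The shares of all probe sets at days 2, 3 and 6 were 12.3%, 10.2% and 14%. Without control replicate 1 the calls at these days numbered 311, 186 and 367 over all probe sets, with 0, 1 and 1 among the members, and without control replicate 2 they numbered 1, 0 and 17, with none among the members. Change over the days of estradiol was called for no member (0.0221% of all probe sets), nor was change over the days of genistein (0%) or the interaction of treatment and day (0%). At an unadjusted p under 0.05 stood 2, 4 and 2 of the 13 in these tests, against 6.92%, 5.79% and 4.24% of all probe sets. Ctss had the smallest p of the members over the days of estradiol (adjusted p = 0.272, rank 13 of all probe sets), and 1417492_at of Ctsb over those of genistein (adjusted p = 0.612, rank 43).

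Across the 14 arrays, and as a description over arrays that share groups, Ctsb and Ctsc ran most closely together among the members (Pearson r = 0.904), followed by Ctsh and Ctsc (0.756) and Ctsd and Ctsz (0.714). Ctss had a negative r with 6 of the other 7 genes, from -0.414 with Ctsb to -0.058 with Lgmn, and an r of 0.13 with Ctsh. Of 8206 other genes, the class II beta chain H2-Ab1 was most like the mean of the members (r = 0.931), ahead of Cbr2 (0.916), Tyrobp (0.915), Mpeg1 (0.906) and Pfn2 (0.906). Those most like Ctsl were the chemokine Ccl25 (0.884), Ahr (0.864) and Gpx3 (0.86). For Ctss the highest r was lower, at 0.769 for Mbnl1 and Arcn1 and 0.766 for Cops8.

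Other genes of the lysosome were described through lists. Among the partners of the cathepsins in class II presentation, 9 of 9 tested genes were above control under estradiol, with a median of 0.427, and 1 passed: H2-Ab1 rose by 0.55 ± 0.106 (adjusted p = 0.0364). This call was lost under 11 of 27 alternatives, with an adjusted p of 0.109 without the 3 arrays at another scale. Under genistein the 9 genes had a median of 0.206 and none passed.

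Among other lysosomal and related proteases 8 of 9 were above control under estradiol, with a median of 0.174. The 1 that passed was Prss16, a serine protease of cortical epithelial cells, which rose by 0.47 ± 0.0984 (adjusted p = 0.0497). This call was lost under 18 of 27 alternatives. The protective protein Ctsa differed by 0.39 ± 0.12 (adjusted p = 0.151). Of the 6 cysteine protease inhibitors none passed and 3 were above 0, and cystatin F, Cst7, differed by 0.68 ± 0.213 (adjusted p = 0.162).

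The lysosomal glycosidases, lipases and activators had 23 of 28 genes above 0 under estradiol, with a median of 0.177 and no call; the ganglioside activator Gm2a differed by 0.52 ± 0.14 (adjusted p = 0.106). Lysosomal membrane proteins had 9 of 11 above 0 with a median of 0.2 and no call, and Laptm4a differed by 0.46 ± 0.123 (adjusted p = 0.105). The 15 subunits of the proton pump that acidifies the lysosome had a median of -0.0225, with 6 above 0, and the 11 genes of sorting and transcriptional control a median of -0.019, with 5 above 0. None of these passed. Under genistein no gene of these lists passed either.

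Summed markers of several cell types, not only of those rich in these enzymes, were also higher on the estradiol arrays. The summed signal of 18 macrophage markers was 3693 to 4003 in the controls, 4950 to 5519 over the estradiol arrays and 3731 to 4913 over the genistein arrays. Of the 15 that were tested 13 were above control under estradiol and 3 passed. None of the 18 was at 0 on any array, and the weakest was Maf, at 1.3 to 21.5. The sum of the 8 members was 6399 to 6536 in the controls, 7547 to 8320 under estradiol and 6599 to 7767 under genistein.

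The 8 cortical epithelial markers summed to 6510 to 6550 in the controls, 7736 to 9841 under estradiol and 6896 to 7406 under genistein, and all 8 were above 0 under estradiol, of which 1, Ccl25, passed (0.50 ± 0.0961, adjusted p = 0.0377). The 10 dendritic cell markers summed to 1218 to 1322, 1439 to 1665 and 1306 to 1557 in the same order. Among them Sirpa passed for estradiol against control (0.67 ± 0.13, adjusted p = 0.0391 in limma). The 8 markers of neutrophils, whose granule proteases cathepsin C activates, summed to 879.6 to 936, 1389 to 2024 and 666 to 1314. At genistein day 2 the median of the 8 genes was nearest to control, at 0.0471, though Ctss differed by -0.45 and Ctsl by 0.26. The macrophage sums at that day were 3880 and 3731, inside the control range. There the cortical epithelial sums, 7403 and 7158, were above both controls, and the neutrophil sums, 666 and 693, were below both.

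The sums for markers of stromal cells were above both controls under estradiol as well. The 9 fibroblast and matrix markers summed to 1162 to 1482 in the controls, 1700 to 2036 under estradiol and 1205 to 1487 under genistein. The 6 adipocyte markers summed to 940.3 to 1008, 1267 to 2187 and 819.9 to 1293 in the same order, and 1 of 4 tested passed against control, the lipoprotein lipase Lpl (1.03, adjusted p = 0.0068). The 7 medullary epithelial markers summed to 621 to 685, 763 to 971 and 715 to 879.5, and none passed. In estradiol against genistein, the comparison in which Ctsz passed, the markers that passed as higher under estradiol were 3 of 15 for macrophages, 4 of 6 for neutrophils, 2 of 8 for cortical epithelium, 2 of 8 for fibroblasts and 2 of 4 for adipocytes. None of 10 passed for dendritic cells or of 7 for medullary epithelium. The sums for endothelial and B cell markers overlapped between estradiol and genistein arrays, as did those for dendritic cell, adipocyte and medullary epithelial markers. With the days pooled, the sums for 10 markers of double-positive thymocytes overlapped between control, estradiol and genistein arrays. They were 14980 to 15640, 14020 to 16680 and 14980 to 17830. By day, those of genistein day 2 (17230 and 16600) and day 3 (16650 and 17830) were above both controls. Those of estradiol day 6 (14950 and 14020) were below both. Of these markers Cd8b1 passed, as lower under estradiol than under genistein (-0.28 ± 0.0594, adjusted p = 0.0345 in limma). Ptcra, next by p, was higher under estradiol (0.40 ± 0.101, adjusted p = 0.0735 in limma). Dntt (-0.22) and Satb1 (-0.17) followed and were lower, and none of these passed. The part of these cell types in the values of the members was not tested.

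**Figure D4:**
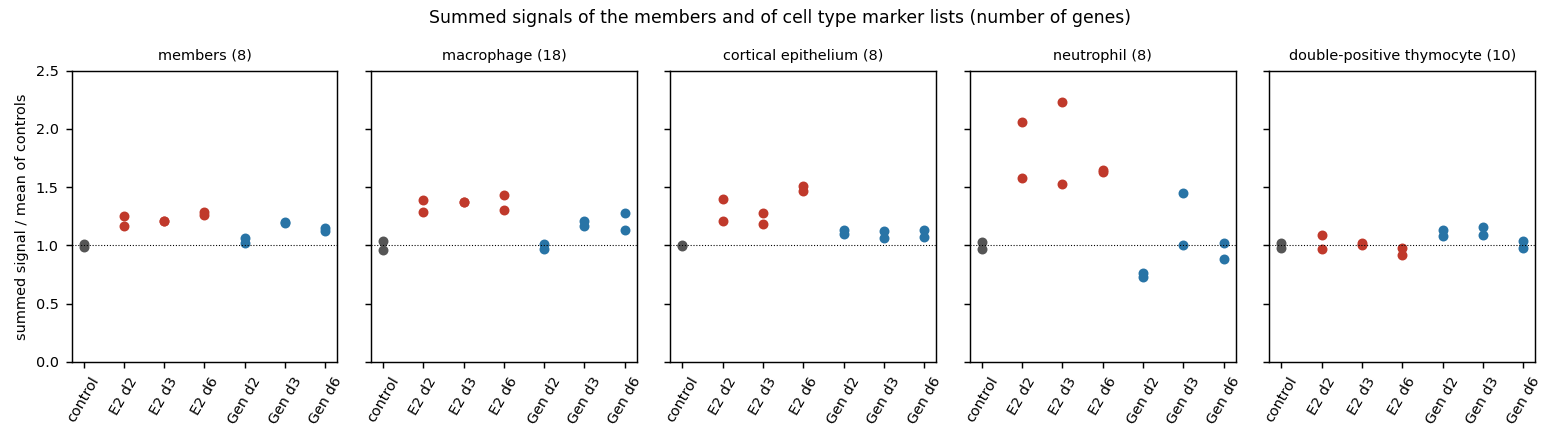
Summed signal relative to the mean of both controls (vertical axis, from 0; dotted line at 1) for the 8 members and 4 lists of cell type markers, by group, with 1 point per array and the number of genes in brackets. The members reach 1.17 to 1.29 under estradiol, where the macrophage sums reach 1.29 to 1.43, while the sums for double-positive thymocytes lie on both sides of 1.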

How the data were processed

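Thymus RNA of 14 pools in 7 groups was hybridised to 1 array each. The deposited values are linear intensities made by the authors with MAS5 5.0, per the submitters' processing notes. Image files were not analysed here, and the values of all arrays were used. The 3 arrays at another scale were multiplied, like all others, to a 2%-trimmed mean of 150.04. Of 22690 probe sets 64 controls were removed, signals plus 16 were put on the log2 scale, and a filter blind to group dropped the 40% with the lowest means, leaving 13575. Log2 changes are on this scale and understate those of dim probe sets.

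One model over all 14 arrays, with 1 mean per group, was fitted with limma 3.58.1 in R 4.3.3 (lmFit, contrasts, eBayes with a trend, 7 residual degrees of freedom), and p-values were adjusted by Benjamini-Hochberg over all tested probe sets within each comparison. The threshold was an adjusted p under 0.05. The fit was tested on simulated data. All 8 members are named; a gene of another list may be named where it passed or is among the 4 smallest p of its list. Likeness is Pearson's r of log2 values over 14 arrays. Figures used matplotlib 3.10.9.

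The members, lists and markers were chosen with earlier results of these data known. Promoter sequences are from RefSeq (GRCm38.p6), and coordinates refer to that build. No build is given for the arrays in the sources used here. Alternatives were another pseudocount, filter, scaling, spread or set of arrays, the replicate number as a block, and averaged probe sets.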

Additional observations from a re-analysis of the deposited data

Results flagged for a closer look

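The main probe set of Ctsz differed between estradiol and genistein by a test of the difference itself, by 0.456 (log2) over the mean of days (adjusted p = 0.00707 in limma, estradiol higher on 6 of 6 arrays against all genistein arrays) and by 0.709 at day 6 (adjusted p = 0.0436). Its probe set 1417870_x_at differed by -0.02 over the mean of days. With averaged probe sets that call was lost (0.29, adjusted p = 0.0693 in limma). The day 6 call was lost under 20 of 27 alternatives.

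Other pairs of days lay on opposite sides of both controls within a treatment. From day 2 to day 3 of estradiol the difference of Ctss was -0.74 and from day 2 to day 6 it was -0.319. Both day 2 arrays were above and the later arrays below the controls, while the limma test of change over the days of estradiol gave an adjusted p of 0.272. Replicate 2 of day 2 and both day 3 arrays are those at another scale. As deposited, the day 3 difference of Ctss from control was 0.39, on arrays at 2 and 2.23 times the common trimmed mean. Under genistein Ctsz stood higher at day 3 than at day 2 by 0.356, and from day 3 to day 6 the difference was -0.373 (adjusted p of change over days = 0.79). The dim probe set 1417491_at of Ctsb had differences of 0.228 from day 2 and 0.21 from day 3 to day 6 of genistein (adjusted p of change over days = 0.927). With 2 arrays per group such opposite positions were looked for in every member probe set and both treatments.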

How the results depend on the processing

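Each result was recomputed under 26 or 27 settings, since a setting that left out its probe set or a group it needs gave no value. Among these, leaving out the 2 arrays with the highest Gapdh ratio was chosen after seeing the data. Of 1685 values for single genes and settings, 1557 kept their direction and their side of the threshold, 65 lost a call, 40 gained one and 23 changed direction. As deposited, with all probe sets shifted by a median of 0.426 under estradiol, over the mean of days 12 member probe sets were called in estradiol against control and 13 in estradiol against genistein, with 12 at day 3 of either, 1 at day 2 of either, 0 for estradiol against genistein at day 6, 12 for change over the days of estradiol and 8 for the interaction; this setting leaves in the scale of the 3 arrays. There Ctss turned to 0.16 against control and 0.32 against genistein as means of days and to 0.39 and 0.33 at day 3, Ctsh to 0.42 and Ctsz 1417870_x_at to 0.42 against genistein. Quantile normalization gave 3 calls in estradiol against control, 3 against genistein and 2 at estradiol day 6. No call remained for estradiol against control over the mean of days (0) without the filter, with median centring, without the 3 arrays, with the replicate block, without the trend, with only the groups compared or with averaged probe sets, and 0 remained for estradiol against genistein at day 6 under the same settings except the filter. Without the 3 arrays 0 also remained over the mean of days for estradiol against genistein, and Ctss turned to 0.18, Ctsh to 0.11 and Ctsz 1417870_x_at to 0.025 there. Median centring gave -0.0066 for Ctss at estradiol day 2, and averaged probe sets 0.087 for Ctsz under genistein. Without the 2 arrays of high Gapdh ratio there were 2 calls over the mean of days, 1 at day 3, 2 at day 6 of estradiol and 0 for estradiol against genistein at day 6, and values of 0.010 for Ctss at genistein day 6 and 0.051 for Ctsz 1417870_x_at against genistein.

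Leaving out 1 array at a time gave 0 to 2 calls for estradiol against control over the mean of days, 1 to 2 for estradiol against genistein, 0 to 1 at estradiol day 3, estradiol day 6, genistein day 2 and estradiol against genistein at day 6, and 0 for the others. Over the mean of days, in estradiol against genistein, Ctsh ranged from -0.069 to 0.048 and Ctsz 1417870_x_at from -0.071 to 0.025, and against control Ctss ranged from -0.069 to 0.19 at genistein day 3 and from -0.16 to 0.010 at genistein day 6. The causes were not tested.

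The replicate numbers do not pair the arrays: over 21 pairs of groups the correlation of the differences between replicates was -0.256 to 0.351, with a median of -0.00631, and 5 were above 0.1. With the replicate block 0 members were called over the mean of days in estradiol against control, 1 in estradiol against genistein, and 0 at day 6 of the latter.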
